A study of Caenorhabditis elegans with 2 samples.

Results

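The Hox genes of Caenorhabditis elegans and the genes of the TALE proteins that bind DNA beside Hox factors were examined for binding of CEH-6, a transcription factor of the POU homeodomain family. The set was fixed by name and holds 10 of the 19985 protein-coding genes of the annotation. It comprises 6 Hox genes (ceh-13, lin-39, mab-5, egl-5, nob-1 and php-3) and 4 TALE genes (unc-62, ceh-20, ceh-40 and ceh-60). Each gene was given a window on its own strand, from 5000 bp upstream of its 5' end to its 3' end, and every region whose summit fell in that window was taken. The pooled list gave 40 such regions of 30000, the list of replicate 1 gave 39 of 30000 and that of replicate 2 gave 45 of 30000. These lists hold peaks and background together, so a region in them is not by itself a site of CEH-6 binding.

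The chromatin came from whole worms of both sexes, collected as late embryos after egg bleaching and labelled with an age of 3.3 hours. All worms were of strain OP748, in the VC2010 background, and carried the unc-119(ed3) mutation together with the transgene wgIs748. That transgene holds ceh-6 fused to TY1, EGFP and 3xFLAG and a working copy of unc-119, and the fusion protein was pulled down by ChIP-seq (chromatin immunoprecipitation and sequencing) with an antibody against GFP. The 2 biological replicates form 1 group, so no groups of samples were compared and no test was run. Whole embryos mix all cell types, so binding in few cells and weak binding in many cannot be told apart.

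Hox genes encode homeodomain factors that give cells along the body axis their regional identity. Many bind DNA together with TALE homeodomain proteins of the PBC class (Pbx in vertebrates) and the MEIS class. In C. elegans ceh-20, ceh-40 and ceh-60 encode PBC proteins and unc-62 encodes a MEIS protein. POU factors such as CEH-6 recognise an octamer, ATGCAAAT, and CEH-6 is best known from the excretory cell, the rectal epithelium and neurons.

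The signal that the authors' caller gave each region is expressed relative to 1 control, and its scale is not stated. Signals ran from 28.9 to 1484 in the pooled list, from 14.2 to 652.6 in replicate 1 and from 18.7 to 926.1 in replicate 2. They are therefore given here as ranks within a list, with rank 1 the strongest. The regions of highest pooled signal are the peaks that passed the authors' comparison of ranks between replicates (the irreproducible discovery rate, IDR), and they are called the IDR set here. The lowest pooled signal in the IDR set was 105.7, and that of the next region was 105.6. Of the 40 pooled regions in the windows, 1 belonged to the IDR set. No read counts were given, so depth is unknown and intervals cover counting error only.

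Of the 10 genes, 8 had a pooled region in their window, against 78.8% of all protein-coding genes. In replicate 1 the count was 8, against 82.1% of all genes, and in replicate 2 it was 9, against 81.4%. These counts are near those of all genes. A region of the IDR set lay in 1 window, that of unc-62, against 5.73% of all genes. An equal number of the strongest regions of replicate 1 reached 1 window, again that of unc-62, against 5.71% of all genes. In replicate 2 they reached none, against 5.80%. Long windows catch more regions. Among the 10637 genes with a window of at least 6902 bp, the shortest among the 10 genes, 7.08% held a region of the IDR set. Among the 494 genes with a window at least as long as that of unc-62 (18989 bp), 12.3% did. With 1 gene of 10, the set as a whole is near these backgrounds too. Within the pooled top 1500, the first 5% of the list, 3 windows had a region (unc-62, nob-1 and php-3), against 10.8% of all genes and 13.7% of those with windows of at least 6902 bp. Since nob-1 and php-3 reached that limit with the same region, 2 loci account for the 3 genes.

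**Figure D1:**
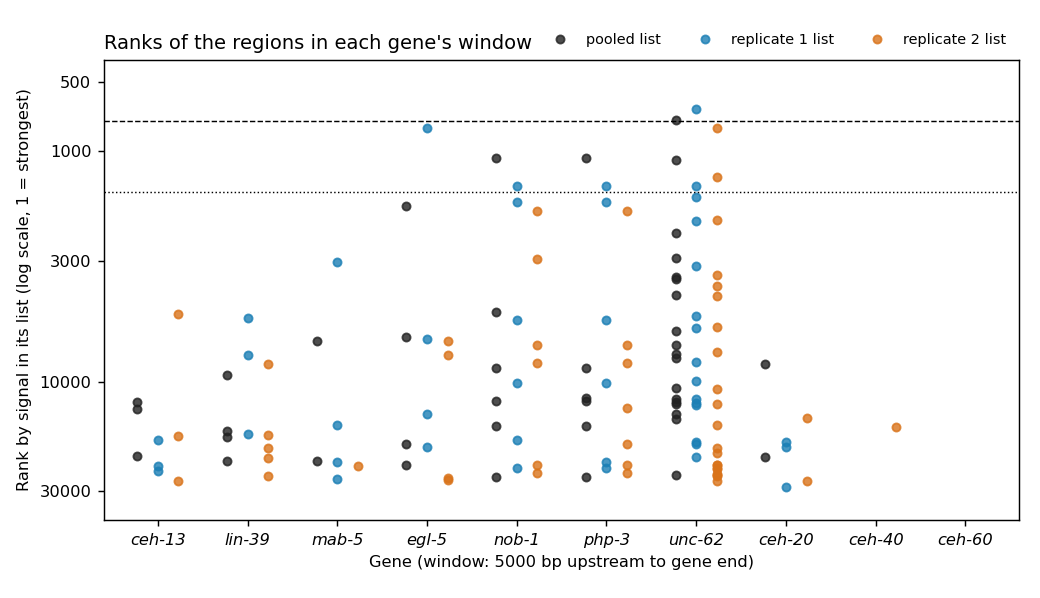
Each point is 1 region in the window of the gene on the x axis, and the y axis (log scale, strongest at the top) is its rank by signal in the pooled list, in replicate 1 or in replicate 2. The dashed line marks the last rank of the IDR set and the dotted line rank 1500. Points above the dashed line are seen at unc-62 alone, and ceh-60 has no point in any list.

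unc-62, a MEIS gene, is required for embryonic patterning and acts with PBC proteins. It lies on chromosome V (4497461 to 4511449, plus strand) and had 18 pooled regions in its window, 15 regions in replicate 1 and 21 in replicate 2. This makes 0.948 pooled regions per kb, a density that 1.24% of all protein-coding genes reached or exceeded. The median over the 10 genes was 0.357 per kb and over all genes 0.269 per kb. The pooled regions of unc-62 had a median rank of 7246.5, and 17 of the 18 (94.4%, exact 95% interval 72.7 to 99.9%) ranked above the middle of the list. For the 22 regions of the other genes the median rank was 12706, with 12 above the middle (54.5%, 32.2 to 75.6%). Neighbouring regions are not independent and unc-62 was singled out by these ranks, so the intervals do not test a difference between genes. The annotation gives unc-62 18 transcripts with 15 different starts, spread along most of its length.

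The strongest region of unc-62 (V, 4499223 to 4499632) had a pooled signal of 106.3 and rank 730, just inside the IDR limit. Its counterparts lay 11 bp away in replicate 1, with rank 655, and 13 bp away in replicate 2, with rank 1286. Both replicates thus held the region, but in replicate 2 it was not among the same number of strongest regions. The summit lay 1967 bp downstream of the gene's 5' end, inside the long transcripts and 48 bp upstream of the start of a shorter one. It was therefore counted as a promoter, and it also falls in the annotated 5' UTR of other transcripts.

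A second strong region of unc-62 (V, 4507677 to 4508086) had a pooled signal of 91.8 and rank 1090. It lay 10421 bp downstream of the gene's 5' end, in an annotated 5' UTR and 678 bp downstream of the nearest transcript start. Here the replicates were in the opposite order, with rank 1580 in replicate 1 (111 bp away) and rank 790 in replicate 2 (3 bp away). The summit of replicate 1 lay closer to a weaker pooled region next to it (rank 11869, 92 bp away). The replicates therefore placed different regions first, the one near 2 kb in replicate 1 and the one near 10 kb in replicate 2. Upstream of the gene, the best region (V, 4494992 to 4495401, signal 72.9, rank 2271) lay 2264 bp from the 5' end, with ranks of 5869 in replicate 1 and 3849 in replicate 2. Further regions inside the gene ranked 2897, 3502, 3575 and 4201 in the pooled list. The match between replicates was uneven among them. For the region of rank 3502 the nearest coding start was that of T28F12.1, 2253 bp away. It had ranks of 5192 in replicate 1 and 3452 in replicate 2. The region of rank 2897 ranked 3155 in replicate 1 and 22968 in replicate 2, where a second summit 180 bp away ranked 5810. The region of rank 3575 had 21319 in replicate 1, where a second summit 267 bp away ranked 8176, and 1994 in replicate 2. In replicate 1 regions 6253 and 9286 bp from the 5' end ranked 1997 and 1414, while the nearest regions of replicate 2 to the same pooled regions ranked 12533 and 23972.

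**Figure D2:**
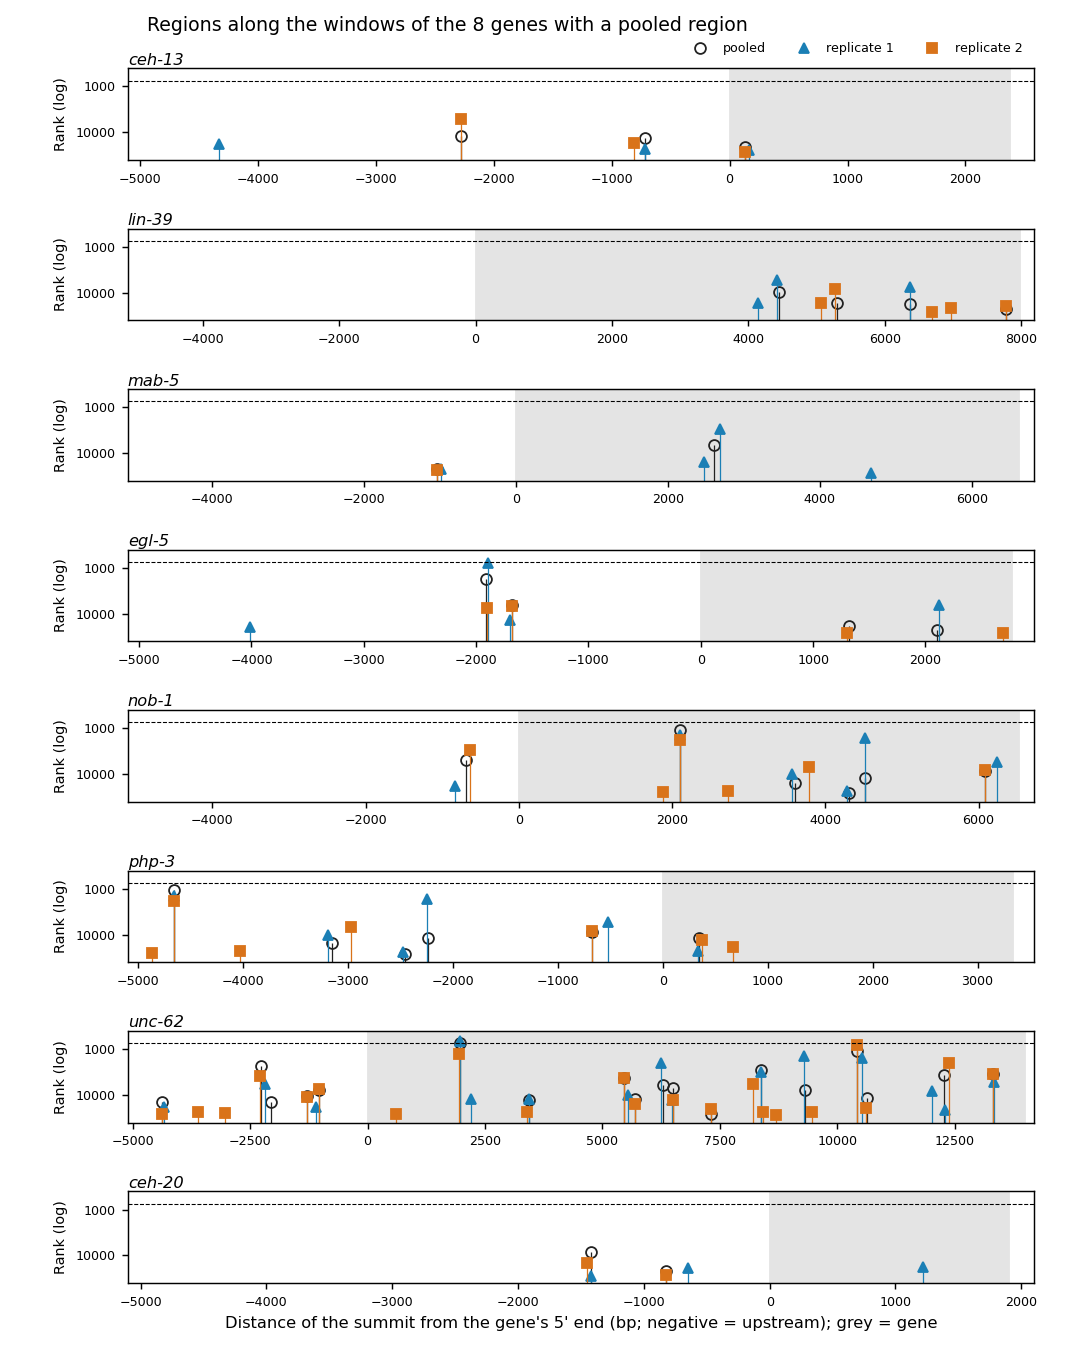
The x axis of each panel is the distance of a summit from the gene's 5' end in bp, with upstream positions negative and the gene shaded, and the y axis is the rank of the region in its list (log scale, strongest at the top, dashed line at the last rank of the IDR set). Circles stand for the pooled list, triangles for replicate 1 and squares for replicate 2. The regions of unc-62 are spread along the whole gene, and in the window of lin-39 all regions lie inside the gene.

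Among the Hox genes the strongest region was at the nob-1 and php-3 locus on chromosome III. Both genes are of the Abdominal-B type and act in posterior patterning of the embryo. They lie next to each other on the minus strand, php-3 (12074218 to 12077556) downstream of nob-1 (12077793 to 12084316), so their windows share 5 of the 6 pooled regions that each contains. The shared region of highest rank (III, 12082012 to 12082421) had a pooled signal of 92.4 and rank 1063. It was matched 1 bp away by rank 1411 in replicate 1 and at the same base by rank 1818 in replicate 2. The 3 lists thus placed it at the same point and within the same range of ranks. It lies in an intron of nob-1, 2099 bp downstream of the 5' end of nob-1 and 4661 bp upstream of that of php-3. With windows that begin 2000 bp upstream it is no longer counted for php-3, whose best pooled rank then was 8714. The sequence within 100 bp of the summit is shown because its summits lay closest together of all Hox regions matched in both replicates. Neither the octamer with up to 1 mismatch nor GAGAGAGA was found in it, so no letters are in capitals, and its GC content was 54.2% (III:12082117-12082317, minus strand, RefSeq sequence of WBcel235).
nob-1 strongest region: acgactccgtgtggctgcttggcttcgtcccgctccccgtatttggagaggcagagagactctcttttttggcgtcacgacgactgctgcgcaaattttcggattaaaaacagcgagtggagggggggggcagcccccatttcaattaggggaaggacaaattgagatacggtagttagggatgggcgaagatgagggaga

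In the promoter of nob-1 a region 689 bp upstream of the 5' end (III, 12084800 to 12085209, signal 58.4) ranked 4991 in the pooled list. Its ranks were 17922 in replicate 1 and 2944 in replicate 2, so by rank it was stronger in replicate 2. A region 677 bp upstream of php-3 (III, 12078028 to 12078437, signal 49.3, rank 8714) had ranks of 5386 and 8264 in replicates 1 and 2. The region that ranked 12155 in the pooled list, 357 bp upstream of the start of a short nob-1 transcript, ranked 1652 in replicate 1. In replicate 2 its nearest summit was 742 bp away, and it was not matched. The region unique to the php-3 window lay in a coding exon of php-3, 341 bp downstream of the 5' end, with rank 11805.

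egl-5, the Abdominal-B type gene of tail cells and, like ceh-6, a gene of the rectal epithelium, had 4 pooled regions (III, gene 7814374 to 7817141, plus strand). The strongest was intergenic, 1911 bp upstream (III, 7812258 to 7812667) with a pooled signal of 79.1 and rank 1727. The replicates put it far apart in rank, 789 in replicate 1 (15 bp away) and 7630 in replicate 2 (5 bp away). Its neighbour, 1681 bp upstream (III, 7812488 to 7812897, signal 54.3, rank 6392), had the reverse order, with rank 13879 in replicate 1 and 6654 in replicate 2. Both replicates thus had summits at both places, and they differed in which was the stronger. The remaining regions, in an intron (rank 18627) and in the 3' UTR (rank 23073), were each matched in 1 replicate. The sequence around the strongest summit is shown because it is the Hox region highest in any list by rank in a replicate, and because it holds an octamer with 1 mismatch, in capitals and on the opposite strand. Its GC content was 58.2% (III:7812363-7812563, plus strand, RefSeq sequence of WBcel235).
egl-5 strongest region: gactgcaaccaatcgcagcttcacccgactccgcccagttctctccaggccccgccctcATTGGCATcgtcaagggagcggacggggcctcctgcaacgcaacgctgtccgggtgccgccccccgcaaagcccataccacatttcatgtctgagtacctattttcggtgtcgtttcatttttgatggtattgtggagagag

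The other Hox genes had no pooled region stronger than rank 6648. mab-5, an Antennapedia type gene of the posterior body, had 2 pooled regions (III, gene 7776835 to 7783454, minus strand). The first lay in an intron, 2612 bp from the 5' end (III, 7780637 to 7781046, signal 53.7, rank 6648). It ranked 3015 in replicate 1, 70 bp away, but the nearest summit of replicate 2 was 3640 bp away. Replicate 2 thus had no matching region that reached its list, whose lowest signal was 18.7, and its share in the pooled signal is unknown. The other lay 1033 bp upstream with rank 22027 and was matched in both replicates, with ranks of 22414 and 23295. lin-39, which acts in the mid-body and in vulval cells, had 4 pooled regions of ranks 9384 to 22063 (III, gene 7528641 to 7536632, minus strand). None of the 4 was matched in both replicates. The strongest (III, 7531984 to 7532393, signal 48.1), in an intron at the non-coding RNA gene C07H6.18, ranked 5267 in replicate 1 and had its nearest summit of replicate 2 620 bp away.

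ceh-13, the labial type gene, is needed in the anterior of the embryo. It had 3 pooled regions (III, gene 7555660 to 7558041, plus strand). The first, 2275 bp upstream (signal 43.7, rank 12302), coincided with a summit of replicate 2 that ranked 5068, while the nearest summit of replicate 1 was 1559 bp away. The promoter region, 716 bp upstream (III, 7554739 to 7555148, signal 42.7, rank 13111), was matched in both replicates, with ranks of 23164 and 17187. The third, in a coding exon 127 bp from the 5' end, ranked 21130 in the pooled list.

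Of the PBC genes, ceh-20 alone had pooled regions, 2 in its window or 0.29 per kb. Over all protein-coding genes, 78.8% had a pooled region, and the medians were 2 regions and 0.269 per kb. ceh-20, which encodes the main Pbx-type partner of Hox proteins in the worm, had 2 pooled regions (III, gene 6979884 to 6981785, plus strand). The stronger (III, 6978261 to 6978670, signal 49.8, rank 8416) lay 1418 bp upstream and had ranks of 28709 in replicate 1 and 14390 in replicate 2. The weaker lay in the promoter, 826 bp upstream, with a pooled rank of 21337. ceh-40 (X, 12318126 to 12320777, minus strand) had no region in the pooled list or in replicate 1. In replicate 2 it had 1, 229 bp upstream of the gene (X, 12320798 to 12321213), with rank 15698. ceh-60, which acts with unc-62 on yolk protein genes in the intestine, had no region in any of the 3 lists (X, 6522596 to 6530146, minus strand). No depth is known, so a window without a region shows only that none reached the lowest signal of a list.

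**Figure D3:**
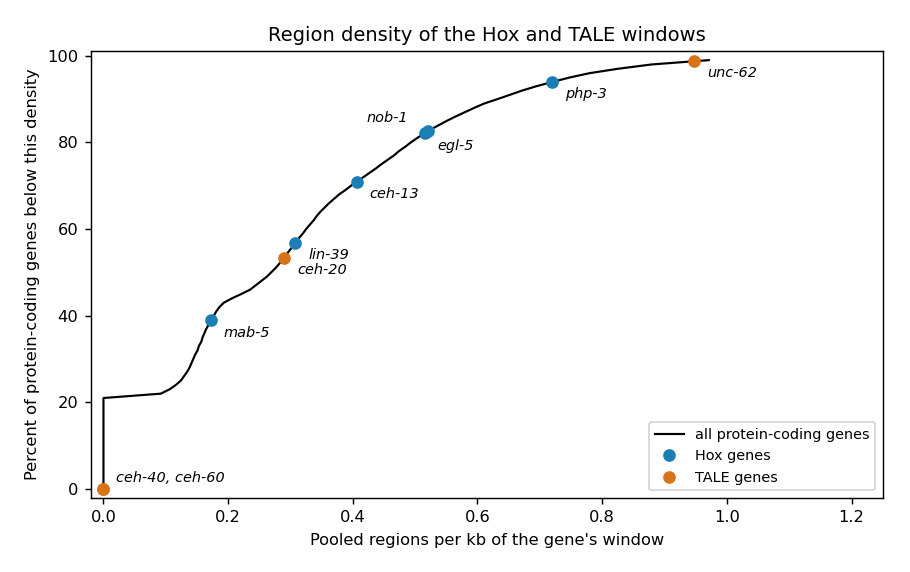
The x axis is the number of pooled regions per kb of a gene's window, and the y axis is the percentage of protein-coding genes with a lower density. The line stands for all protein-coding genes and the points for the 6 Hox genes and the 4 TALE genes. unc-62 is at the upper end with 0.948 per kb, php-3 follows with 0.720, and ceh-40 and ceh-60 are at 0. Of the 6 regions counted for php-3, 5 also lie in the window of nob-1.

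Taken by best pooled rank, the order was unc-62 (730), nob-1 and php-3 (both 1063), egl-5 (1727), mab-5 (6648), ceh-20 (8416), lin-39 (9384) and ceh-13 (12302). In replicate 1 the best ranks were 655 for unc-62, 789 for egl-5, 1411 for nob-1 and php-3, 3015 for mab-5, 5267 for lin-39, 18010 for ceh-13 and 18244 for ceh-20. In replicate 2 they were 790 for unc-62, 1818 for nob-1 and php-3, 5068 for ceh-13, 6654 for egl-5, 8384 for lin-39, 14390 for ceh-20, 15698 for ceh-40 and 23295 for mab-5. The first place of unc-62 was common to the lists. The order of the other genes differed between replicates, so neighbours below unc-62 are not separated. Best ranks of a gene in different lists can belong to different places in its window, as at unc-62, mab-5, ceh-13 and ceh-20. The median best pooled rank was 4187.5 over the 8 genes with a region, against 7689 over all protein-coding genes with one and 6543 over those with windows of at least 6902 bp. The value for the 8 genes counted the region of rank 1063 for both nob-1 and php-3. Over the 7 distinct best regions the median was 6648. With windows that begin 2000 bp upstream it was 7532 for the 8 genes, against 9286.5 for all genes. For the genes whose window from 5000 bp upstream was at least 6902 bp long, it was then 7994. By ranks in the 3 lists, the genes outside the set that came nearest to unc-62 were Y41D4A.4 and Y41D4A.6, which share a region with ranks of 715, 607 and 827 in the pooled list, replicate 1 and replicate 2. ZK131.11 followed, with ranks of 676, 697 and 760.

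Of the 40 pooled regions, 27 (67.5%, exact 95% interval 50.9 to 81.4%) had a summit within 200 bp in both replicates, against 42.3% of all pooled regions. Replicate 1 matched 35 of them and replicate 2 matched 32, and none of the 40 was without a match in either. Shares matched in a single replicate were not computed over all pooled regions, so these counts cannot be called particular to the 40. At unc-62 the count was 15 of 18 (83.3%, 58.6 to 96.4%), and at the other genes 12 of 22 (54.5%, 32.2 to 75.6%). Where pooled regions lie close together they can share a replicate region. When each replicate region was matched to its nearest pooled region only, 24 of the 40 were matched in both (60%), against 39.1% of all pooled regions. With a limit of 100 bp the share was 45.0%, against 30.7%. These comparisons were not matched for rank, and the 40 regions had a median rank of 11212, against 15000 for all pooled regions. The pooled list was derived from both replicates, so a match to them is partly built in. Neighbouring regions are not independent, so the intervals do not test a difference between unc-62 and the other genes.

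**Figure D4:**
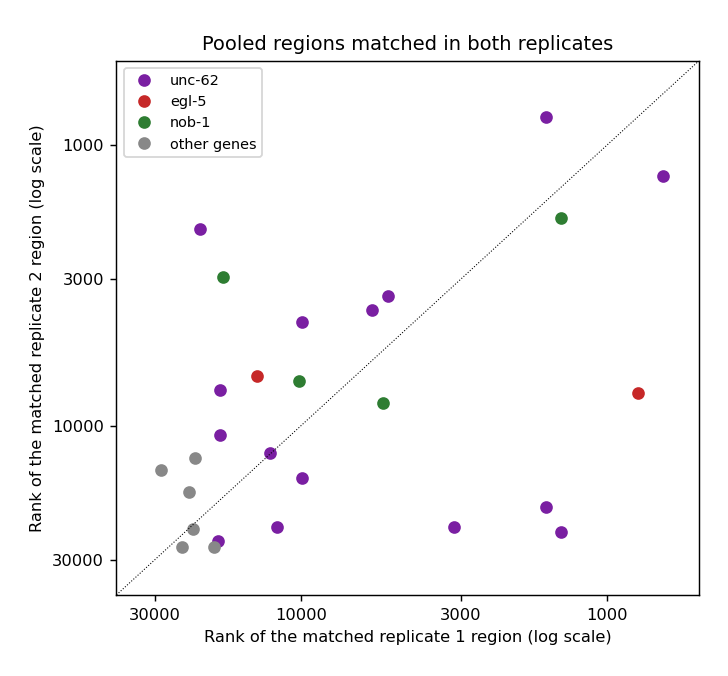
Each point is 1 of the 27 pooled regions with a summit within 200 bp in both replicates, placed by the rank of the matched region in replicate 1 (x axis) and in replicate 2 (y axis), both on log scales with the strongest at the upper right. Regions in both the nob-1 and the php-3 window are shown under nob-1, and the dotted line marks equal ranks. Points far from the line, strong in 1 replicate and weak in the other, occur at unc-62, egl-5 and nob-1, such as the egl-5 region with ranks of 789 and 7630.

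By location, 12 of the 40 summits were in promoters (30.0%, exact 95% interval 16.6 to 46.5%), within 1000 bp upstream of an annotated transcript start, against 25.0% of all pooled regions. Introns held 9 (22.5%, 10.8 to 38.5%), against 25.5%. The promoter and intron shares are thus near those of all regions. Intergenic summits numbered 10 (25.0%, 12.7 to 41.2%), against 18.6%. In coding exons there were 2 (5.00%, 0.611 to 16.9%), against 26.3%, and in 3' UTRs 2, against 1.71%. The 5' UTRs held 5 (12.5%, 4.19 to 26.8%), against 1.32%, and all 5 were in unc-62. The promoter share depended on the internal starts of unc-62 and nob-1. When only the 5' end of each gene counted as a start, 4 summits were in promoters (10%) and 16 in introns (40%). Those 4 lay between 677 and 826 bp upstream of ceh-13, php-3, nob-1 and ceh-20.

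No summit of the 40 had the octamer ATGCAAAT within 100 bp, on either strand, against 1.84% of all pooled regions. A count of 0 of 40 allows a share of up to 7.50%, so a share like that of all regions was not separable from 0 at this number of regions. The same count was 0 of 39 in replicate 1 and 0 of 45 in replicate 2, which allow up to 7.69% and 6.67%. With 1 mismatch allowed the octamer was at 7 of the 40 (17.5%, 7.34 to 32.8%), against 27.6% of all pooled regions. In the windows as a whole there were 9 exact octamers, 3 in that of unc-62, 2 in that of lin-39 and 1 each in those of ceh-13, egl-5, ceh-20 and ceh-40. The 6 windows with an octamer had between 0.129 (egl-5) and 0.158 (unc-62) octamers per kb, and the other 4 windows had none. The genome had 0.0914 per kb. In a window as short as that of ceh-13 (7382 bp), 1 copy already gave 0.135 per kb. Windows chosen for holding a copy therefore cannot show an excess over the genome, and an excess was not tested. Of the 9, the octamer nearest to a pooled summit was inside unc-62 (V, 4503846 to 4503853, minus strand). It lay midway between summits at 4503744 and 4503955, 105.5 bp from each and so just beyond the limit of 100 bp. These regions had pooled ranks of 6017 and 6918. Both regions contain this copy when their whole length is searched, which makes 2 of 40 regions (5.00%) from 1 octamer, against 3.77% of all pooled regions. The span between the summits is shown with the octamer in capitals, read on the strand of unc-62 (V:4503744-4503955, plus strand, RefSeq sequence of WBcel235). The other 8 octamers were between 545.5 and 5948.5 bp from the nearest pooled summit. The copy upstream of unc-62 (V, 4494244 to 4494251) lay 187.5 bp from a replicate 2 summit of rank 25084. It falls inside that replicate 2 region (V, 4494227 to 4494642).
unc-62 octamer span: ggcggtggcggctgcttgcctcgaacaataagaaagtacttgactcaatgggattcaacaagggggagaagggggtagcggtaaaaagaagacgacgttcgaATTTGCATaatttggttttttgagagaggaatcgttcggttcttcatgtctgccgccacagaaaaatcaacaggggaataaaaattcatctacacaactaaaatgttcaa

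Letters of sites known for Hox and TALE proteins were also searched within 100 bp of the summits, on both strands. The form TGATNNAT, in which Hox and PBC proteins bind side by side, was at 10 of the 40 (25.0%, exact 95% interval 12.7 to 41.2%), against 12.2% of all pooled regions. The MEIS site TGACAG was at 1 (2.50%, 0.0633 to 13.2%), against 6.95%. The repeat GAGAGAGA was at 6 (15.0%, 5.71 to 29.8%), against 3.67%, and CACACACA at 2 (5.00%, 0.611 to 16.9%), against 3.22%. The median GC content within 100 bp of the summits was 42.5% for the 40 regions, with a range of 23.4 to 58.7%, and 41.8% for all pooled regions. These shares were not tested. The closest summits were 203 bp apart, so no copy was counted for more than 1 region. A match of letters describes the window and no more.

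Copies of TGATNNAT are shown for 2 Hox genes, in capitals, as examples from the 10 regions with a copy. The ChIP was of CEH-6, so Hox binding at these copies was not measured. In the intron region of mab-5 the copy begins at the summit (III:7780742-7780942, minus strand, RefSeq sequence of WBcel235). In the promoter region of ceh-13 it begins at the 25th base of the window (III:7554844-7555044, plus strand, same sequence), and the 8 letters are the same in both.
mab-5 intron region: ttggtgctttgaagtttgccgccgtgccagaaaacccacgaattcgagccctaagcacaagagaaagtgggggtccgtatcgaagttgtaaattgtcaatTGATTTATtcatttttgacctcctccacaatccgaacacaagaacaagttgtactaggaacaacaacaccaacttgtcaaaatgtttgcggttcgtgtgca
ceh-13 promoter region: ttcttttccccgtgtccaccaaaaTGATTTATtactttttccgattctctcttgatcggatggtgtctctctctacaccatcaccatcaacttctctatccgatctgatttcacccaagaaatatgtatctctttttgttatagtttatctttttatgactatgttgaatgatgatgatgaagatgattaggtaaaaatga

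None of the 40 summits lay within 100 bp of a tRNA, snoRNA, snRNA, rRNA or miRNA gene, against 2.02% of all pooled regions. A count of 0 of 40 allows a share of up to 7.50%, so the 40 regions were not separable from the list in this.

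Other genes tied to Hox function were taken from lists. Of 15 regulators of Hox genes, all 15 had a pooled region in their window, against 85.4% of genes with windows of at least 6902 bp. A region of the IDR set was in 4 windows, against 7.08% of those genes, and the median best rank was 2554, against 6543. These lists were chosen with earlier results of these data known, so the counts are not independent support. The 4 were sor-1, sor-3, lin-59 and egl-27. sor-1 and sor-3 act with the Polycomb-like gene sop-2 in keeping Hox genes silent. At sor-1 the region lay in the promoter (III, 8417258 to 8417667, signal 115.6, rank 609), with ranks of 1137 in replicate 1 and 396 in replicate 2. At sor-3 the promoter region (X, 353202 to 353371, signal 238.3, rank 170) had its summit in a tRNA gene. lin-59, of the trithorax type, had a promoter region of rank 379, with ranks of 354 and 332 in the replicates. egl-27, an MTA-type chromatin gene, had one of rank 363 in its window (II, 6846703 to 6847112), in a coding exon whose nearest coding start was that of tbc-6. Of 9 reported targets of Hox or TALE proteins, all 9 had a pooled region and 2 had one in the IDR set, against the same 85.4% and 7.08%. egl-18, a GATA factor gene, had an intron region (IV, 1908452 to 1908861, signal 122.6, rank 529) with ranks of 1244 and 411. egl-17, an FGF gene, had a region of rank 41 that again had its summit in a tRNA gene. The other TALE genes psa-3, which is also among those targets, and irx-1 had best pooled ranks of 8341 and 2287.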

How the data were processed

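ChIP-seq regions on ce11 came as 4 lists deposited by the authors. They cover each replicate, both replicates together and the peaks that passed IDR, and the deposited text derives each from alignments and 1 control. Apart from the peaks that passed IDR, the lists hold peaks and background together, as the input for IDR. Caller and aligner: not given in the sources used here. Each region's deposited signal (column 7) was ranked within its list, and the summit was column 2 plus column 10. Regions are mostly 410 bp wide in the pooled list, 396 bp in replicate 1 and 416 bp in replicate 2, with the summit at the middle, so summit positions carry that limit.

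Windows, transcript starts and locations were taken from Ensembl release 115 (WBcel235, which ce11 also names), and sequence from its RefSeq copy. A summit was placed in the first class that applied, promoter (1 to 1000 bp upstream of any coding transcript start) before 5' UTR, then coding exon, then 3' UTR, then intron, then exon of a non-coding RNA, and otherwise intergenic. Shares have exact (Clopper-Pearson) 95% intervals (scipy 1.17.1, Python 3.11.15), and a count of 0 was taken to allow 3 counts. Regions are not replicates, and neighbouring ones are not independent. Counting and motif functions were tested on simulated data. All 10 genes are described, regions of the pooled top 1500 are given singly, and other regions, chosen for description after their values were seen, by ranks or counts. Genes of the other lists are named if their window held a region of the IDR set. The likeness to unc-62 is the smallest sum of absolute log10 rank ratios over the 3 lists. The genes and lists were chosen with earlier results of these data known. The 2 replicates are separate biological samples per the labels. The sequence of 1 region is not reported here.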

Additional observations from a re-analysis of the deposited data

How the results depend on the processing

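No paired analysis was possible because the series has 1 group. Of 41 comparisons of a main count or share with an alternative, 32 stayed within 1.5 times the count or within the exact 95% interval, and 9 did not. The number of genes with a region in the IDR set was 1, with 0 to 1 at the same number of regions when either replicate was left out, and 0 in the pooled top 370. The number with one in the top 1500 was 3, and 1 to 4 with either replicate left out (1 without replicate 1). The share of regions matched in both replicates was 67.5%, and 45.0% when 100 bp was the limit. The promoter share of 30.0% was 15.0% with promoters of 500 bp, 52.5% with promoters of 2000 bp and 10% with gene 5' ends alone, which left 40% in introns. That last alternative, and the matching of each replicate region to 1 pooled region, were chosen after seeing the data. The octamer share of 0 was 17.5% with 1 mismatch and 5.00% (2 of 40) over the whole regions, where 2 overlapping unc-62 regions hold the same copy, against 3.77% of all pooled regions. In replicate 2, mab-5 had a best rank of 23295, against 3015 in replicate 1, and the cause was not tested. These are different places, upstream of the gene in replicate 2 and in an intron in replicate 1. The upstream place ranked 22414 in replicate 1. With unknown depth and 40 regions, shares of a few percent cannot be separated from 0.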
